A study of Mus musculus with 4 samples.

Results

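Mouse chromosome 13 held 949 regions of open chromatin that were called in at least 2 of 4 ATAC-seq libraries of 10T1/2 cells, out of 23116 such regions on all chromosomes and scaffolds. They were found by joining the peaks of the 4 deposited peak lists wherever they overlapped by at least 1 bp, which gave 39137 merged regions, 1775 of them on chromosome 13, and by keeping the chromosome 13 regions with a peak in 2 or more lists. The chromosome was selected on measured values, namely the share of peaks and the peak ranks by genotype in these same lists, so every value on peak presence and rank by genotype below is a description and carries no test. The 10T1/2 line consists of mouse embryonic fibroblasts. The 2 wild-type libraries came from cells with intact Ranbp2, and the 2 knockout libraries came from cells in which Ranbp2 had been disrupted with CRISPR-Cas9 and a single guide. All knockout material derived from 1 clone that was expanded after sorting individual cells, so differences between clones and differences between genotypes cannot be told apart. The labels name no other treatment and no sequencing batch, and they do not say whether replicates came from separate cultures, so the spread between replicates may be technical.

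ATAC-seq uses a transposase that inserts sequencing adapters into DNA not covered by nucleosomes, so peaks mark promoters, enhancers and other open sites. RANBP2 forms the filaments that reach from the nuclear pore into the cytoplasm, binds the GTPase Ran and promotes SUMO attachment to proteins. Mouse chromosome 13 carries the main cluster of replication-dependent histone genes, together with developmental regulators such as Gli3, Foxc1 and Mef2c, genes of cholesterol synthesis and many housekeeping genes. Promoters of housekeeping genes are commonly open in most cell types, whereas sites far from genes are more often specific to a cell type.

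The promoters that carry the pattern are shown first, because most of the chromosome 13 regions that the authors' deposited tables list as enriched in wild-type cells lie at the ends of genes. The 7 windows below run from 250 bases before to 50 bases after a listed transcription start, are taken from RefSeq on GRCm38.p6 and are written 5′ to 3′ on the strand of the gene. The first 5 (Foxc1, Tmem170b, H2ac6, Kdm1b and Srd5a1) overlap regions listed as enriched in wild-type cells. The last 2, Ddx41 and Secisbp2, overlap regions that ranked higher in both knockout libraries and are shown for contrast. Capitals mark matches, on either strand, to 9 short motifs: the GC box GGGCGG, the CCAAT box CCAAT, the TATA box TATAAA, ETS CCGGAAG, AP-1 TGANTCA, CRE TGACGTCA, the E-box CACGTG, NRF1 (GCGC, any base, then TGCGC) and YY1 AAGATGGCG.
Foxc1, + strand, chr13:31806396-31806695: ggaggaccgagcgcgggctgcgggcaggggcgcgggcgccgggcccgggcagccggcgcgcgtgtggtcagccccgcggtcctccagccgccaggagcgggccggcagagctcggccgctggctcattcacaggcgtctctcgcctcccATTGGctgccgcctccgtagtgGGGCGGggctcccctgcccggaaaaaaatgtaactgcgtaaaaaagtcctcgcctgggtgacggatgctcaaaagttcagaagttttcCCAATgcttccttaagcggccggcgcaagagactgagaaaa
Tmem170b, + strand, chr13:41605632-41605931: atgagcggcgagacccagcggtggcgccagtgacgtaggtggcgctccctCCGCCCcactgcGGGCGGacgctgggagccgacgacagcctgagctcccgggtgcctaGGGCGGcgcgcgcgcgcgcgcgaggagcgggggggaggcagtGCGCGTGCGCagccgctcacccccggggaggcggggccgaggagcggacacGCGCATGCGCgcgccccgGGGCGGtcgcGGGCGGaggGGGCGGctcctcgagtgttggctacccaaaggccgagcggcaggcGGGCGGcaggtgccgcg
H2ac6, - strand, chr13:23683910-23684209: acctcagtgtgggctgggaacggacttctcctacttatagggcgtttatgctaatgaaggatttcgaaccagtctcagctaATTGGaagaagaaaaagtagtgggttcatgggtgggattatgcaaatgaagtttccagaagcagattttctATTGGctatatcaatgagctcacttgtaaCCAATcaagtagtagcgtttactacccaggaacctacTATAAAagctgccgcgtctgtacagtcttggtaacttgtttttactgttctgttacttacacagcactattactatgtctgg
Kdm1b, + strand, chr13:47043249-47043548: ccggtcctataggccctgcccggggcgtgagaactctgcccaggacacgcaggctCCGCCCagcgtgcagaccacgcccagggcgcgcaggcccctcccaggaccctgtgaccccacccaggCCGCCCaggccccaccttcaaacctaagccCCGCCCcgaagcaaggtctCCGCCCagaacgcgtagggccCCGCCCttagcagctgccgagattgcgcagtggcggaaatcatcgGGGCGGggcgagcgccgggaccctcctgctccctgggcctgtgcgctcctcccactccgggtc
Srd5a1, - strand, chr13:69611414-69611713: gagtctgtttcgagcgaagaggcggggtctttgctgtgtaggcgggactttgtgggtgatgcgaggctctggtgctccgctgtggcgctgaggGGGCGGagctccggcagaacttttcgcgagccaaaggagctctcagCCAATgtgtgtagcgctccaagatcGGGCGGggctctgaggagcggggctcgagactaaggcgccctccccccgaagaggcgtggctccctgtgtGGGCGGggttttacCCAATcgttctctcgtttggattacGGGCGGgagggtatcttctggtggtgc
Ddx41, - strand, chr13:55536609-55536908: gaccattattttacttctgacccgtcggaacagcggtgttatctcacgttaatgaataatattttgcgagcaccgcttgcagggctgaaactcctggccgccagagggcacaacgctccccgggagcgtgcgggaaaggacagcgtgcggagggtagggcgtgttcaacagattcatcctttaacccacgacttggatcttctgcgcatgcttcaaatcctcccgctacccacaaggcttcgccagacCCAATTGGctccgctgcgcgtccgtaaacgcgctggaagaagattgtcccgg
Secisbp2, + strand, chr13:51651458-51651757: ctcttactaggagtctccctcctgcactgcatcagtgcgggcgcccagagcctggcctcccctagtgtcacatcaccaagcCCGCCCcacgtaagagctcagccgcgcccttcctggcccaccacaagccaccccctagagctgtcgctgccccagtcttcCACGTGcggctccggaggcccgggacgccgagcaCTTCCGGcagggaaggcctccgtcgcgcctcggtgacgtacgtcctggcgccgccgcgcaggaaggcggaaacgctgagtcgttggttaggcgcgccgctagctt

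These windows differ widely in composition. Tmem170b, which encodes a membrane protein, had 7 GC boxes and 2 NRF1 motifs in a window of 79.3% G and C with 49 CpG dinucleotides. H2ac6, a replication-dependent histone H2A gene, had no GC box but 3 CCAAT boxes and 1 TATA box in a window of 41.7% G and C with 6 CpG. Foxc1, a forkhead factor of mesenchyme, had 1 GC box and 2 CCAAT boxes, Kdm1b, a histone H3 lysine 4 demethylase, had 6 GC boxes, and Srd5a1, a steroid 5-alpha-reductase, had 4 GC boxes and 2 CCAAT boxes. Ddx41, a DEAD-box RNA helicase, had 2 CCAAT matches on opposite strands that share bases, and Secisbp2, a selenoprotein translation factor, had 1 GC box, 1 ETS motif and 1 E-box. No 2 different motifs overlapped in any of the 7 windows.

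A promoter window was available for 725 of 829 protein-coding genes of chromosome 13, and 303 windows of 281 genes overlapped a member. The GC box occurred in 65.0% of 100 windows at chromosome 13 regions that ranked lower in both knockout libraries and in 53.0% of 100 windows at regions that did not, against 46.2% of all 21263 protein-coding windows. The CCAAT box occurred in 62.0% and 51.0% of the same 2 sets, in 71.4% of 21 windows at deposited wild-type-enriched regions and in 38.2% of all windows. The ETS motif occurred in 14.0% of windows at lower regions and in 29.0% of the others. On the other autosomes, 1248 windows at lower and 3571 at other shared regions gave 76.0% and 72.7% for the GC box, 53.7% and 46.7% for the CCAAT box and 24.1% and 26.2% for the ETS motif. These shares describe letters in the windows, and neighbouring genes share some of them.

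Of the 4 libraries, wild type 1 had 33721 peaks, wild type 2 had 18511, knockout 1 had 13877 and knockout 2 had 24292. The deposited lists hold no read counts, so the depth of each library is unknown, and a missing peak means only that a region did not reach the list's threshold. Chromosome 13 held 1581, 782, 495 and 912 of these peaks, or 4.84%, 4.36%, 3.69% and 3.89% of the autosomal peaks. Both knockout shares lay below both wild-type shares, also with each list cut to its 13877 strongest peaks (4.26%, 4.27%, 3.69% and 3.50%). Gene-end peaks were present at 8 of 10 mesenchymal marker genes in wild type 1, at 6 in wild type 2, at 3 in knockout 1 and at 4 in knockout 2, with Col1a2, Vim and Fn1 among them in each. None of 5 epithelial, 5 endothelial and 5 pluripotency markers had one in any library, and of 5 immune and 5 neural markers only Spi1, Tubb3 and Snap25 (wild type 1) and Cd68 (knockout 2) did.

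The members were short and mostly away from gene ends. Their median width was 236 bp, with a range of 97 to 811 bp. Regions no more than 1 kb from the first or last base of a protein-coding gene are called gene-end regions, since the gene table used gives spans without strand, exons or UTRs. By this rule 313 members (33.0%) lay at gene ends, against 36.0% on the other autosomes. A further 267 lay inside genes away from their ends and 369 lay between genes, of which 97 had no protein-coding gene within 100 kb. Of the 1775 merged regions, 826 had a peak in 1 list, 319 in 2, 237 in 3 and 393 in all 4. Regions just outside the rule, with a peak in 1 list, had a median best fold enrichment of 5.72 and a median best -log10 q of 8.85, while those just inside it, with a peak in 2 lists, had 7.97 and 16.7. Regions with a peak in all 4 lists reached 14.6 and 56.5.

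The share of chromosome 13 peaks at gene ends was not the measure that chose the chromosome. It is taken from the same peaks, however, so the tests of it below are no independent support. Wild-type libraries had 25.4% and 35.7% of their chromosome 13 peaks at gene ends, and knockout libraries 39.8% and 31.8%. The knockout mean was higher by 5.28 percentage points, but the genotypes overlapped (two-sided exact permutation p = 0.667, and 2 against 2 libraries cannot give less than 0.333), and at equal list length the difference was -0.406. It was 0.120 points without wild type 1, 1.28 without knockout 1, 9.28 without knockout 2 and 10.4 without wild type 2. Within each library the gene-end share was lower on chromosome 13 than on the other autosomes, by -4.57 and -4.22 points in the wild-type libraries, and by -0.963 and -1.42 in the knockout libraries. The mean of -2.79 points, negative in 4 of 4 libraries, was reached in size by 2 of the 16 sign patterns of a two-sided exact sign-flip test, the fewest that 4 libraries allow.

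Of the 949 members, wild type 1 had a peak in 936, wild type 2 in 754, knockout 1 in 468 and knockout 2 in 763. Peaks of both wild-type libraries with none in either knockout library marked 161 members (16.97%), against 10.9% of 21448 regions on the other autosomes. The opposite pattern, both knockout libraries and no wild-type library, marked 9 members (0.948%, against 1.62%). All 4 libraries had a peak in 393 members (41.4%, against 47.8%). Knockout 1 was the library most often missing: 182 members had a peak in the other 3, whereas 14 lacked only knockout 2. The background percentages come from the contrast that chose the chromosome and support nothing further.

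**Figure D1:**
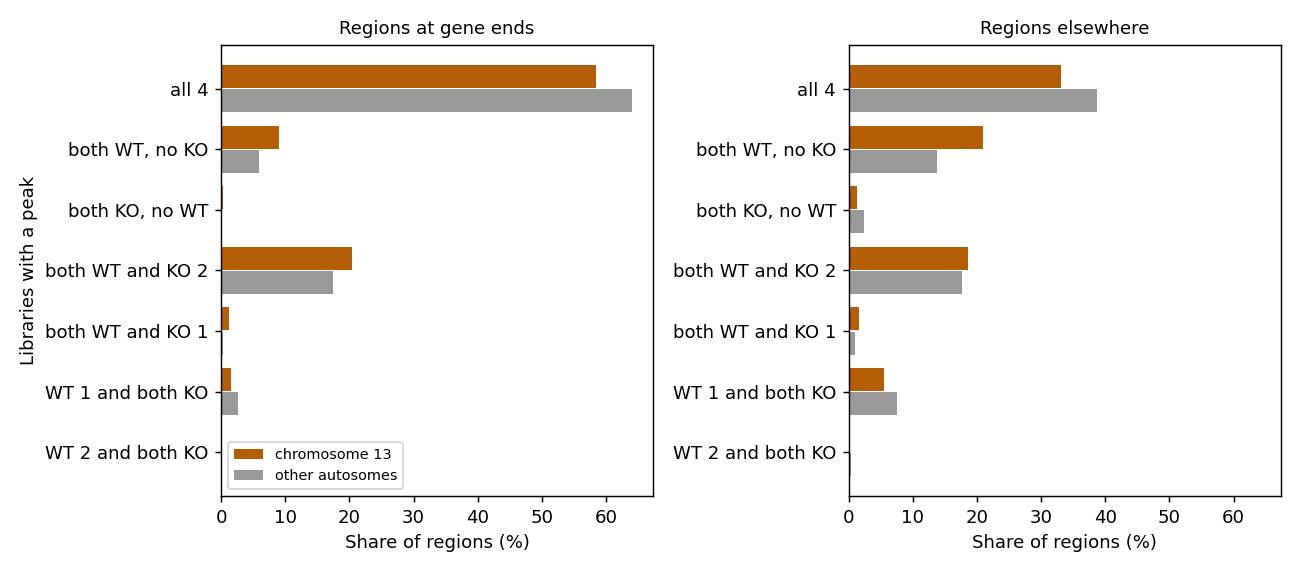
Share of regions (%, horizontal axis) with each pattern of peaks over the 4 libraries (vertical axis), for chromosome 13 (brown bars) and the other autosomes (grey bars), at gene ends (left) and elsewhere (right). Patterns of 1 wild-type with 1 knockout library are not drawn. In both panels the chromosome 13 bar is longer for both wild-type and no knockout library (8.95% and 20.9%) and shorter for all 4 libraries (58.5% and 33.0%).

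Wild-type-only members were spread over both classes of position. At gene ends they numbered 28 of 313 (8.95%, against 5.93% on the other autosomes), and elsewhere 133 of 636 (20.9%, against 13.7%). Knockout-only members numbered 1 at gene ends (0.195% on the other autosomes) and 8 elsewhere (2.42%). List length moved with these counts. With every list at the length of the shortest, 563 regions of chromosome 13 remained in at least 2 lists, of which 81 were wild-type-only (14.4%, against 8.10%) and 23 knockout-only (4.09%, against 7.06%). Leaving out wild type 2 gave 805 regions with a peak in wild type 1 and no knockout library, leaving out knockout 2 gave 343 wild-type-only regions, and leaving out wild type 1 or knockout 1 gave 186 and 175. Knockout-only regions, 9 with all libraries, numbered 51 without wild type 1, 148 without knockout 1 and 30 without knockout 2. Where 1 library of a genotype remained, a peak in that library alone was enough. Such counts therefore include regions that are not members.

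The best-ranked wild-type-only members lay away from gene ends. The first, at 104460401-104460653 inside Adamts6, a secreted metalloprotease of the extracellular matrix, had a fold enrichment over local background of 21.1 and 15.8 in the wild-type libraries. Next to Gas1, a cell-surface protein that binds Sonic hedgehog, 2 regions lay 29.7 kb and 48.7 kb from the gene, with fold enrichments of 17.5 and 11.99 for the first and 15.9 and 10.7 for the second. The others lay at 90546699-90547108, with no protein-coding gene within 100 kb, and 21.1 kb from Gtpbp4, a GTPase of ribosome assembly. None of the 5 had a knockout peak, although the gene-end region of Gas1 itself had a peak in all 4 libraries.

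Knockout-only members were weaker. The best-ranked lay 2.50 kb from Tmem170b, with a fold enrichment of 6.42 and 10.97 in the knockout libraries. A region inside Atxn1, which encodes the polyglutamine protein ataxin-1, at 45932403-45932577, had 6.32 and 6.75 and is the only chromosome 13 region of the authors' deposited table of knockout-enriched regions. Of the 9, 5 lay between 65 and 70 Mb, near Gm17353, Gm45965, 2410141K09Rik and Gm46427 or far from any protein-coding gene, and the other two lay near Erbin and inside Adamts6. The Gm17353 region, 0.060 kb from the gene, was the one at a gene end.

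To compare strength between lists of unequal length, the 10647 autosomal regions with a peak in all 4 libraries were ranked by -log10 q within each library, from percentile 0 (weakest) to 100 (strongest). The same regions are ranked each time, so a lower percentile means a weaker place among them and not a measured loss of reads. The 393 regions of chromosome 13 averaged percentiles 49.3 and 48.7 in the wild-type libraries, against 44.0 and 41.3 in the knockout libraries. Both knockout means lay below both wild-type means, by -6.41 points on average (-8.08 to -4.73 over the 4 pairs of a wild-type with a knockout library). Replicates differed by 0.622 points in wild-type and 2.72 points in knockout cells. On the other autosomes together the shift was 0.246 points, and chromosome 13 had the lowest of 19 autosomes, followed by chromosome 9 at -5.45.

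Taken singly, 159 of the 393 regions (40.5%, against 24.0% of shared regions on the other autosomes) ranked lower in both knockout libraries than in both wild-type libraries. Another 43 (10.9%, against 23.1%) ranked higher in both knockout libraries, and the genotypes overlapped at the rest. Below, lower and higher mean these 2 calls.

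Regions at gene ends showed the larger shift. The 183 shared regions there averaged percentiles 57.2 and 54.1 in the wild-type libraries, against 45.5 and 44.5 in the knockout libraries, a shift of -10.67 points (-12.74 to -8.61). This too was the lowest of 19 autosomes, with chromosome 9 at -9.33 and the other autosomes together at -1.76. Of these regions 97 were lower (53.0%, against 25.0%) and 4 were higher (16.6% on the other autosomes). The 210 shared regions elsewhere averaged 42.5 and 44.0 in the wild-type libraries, against 42.7 and 38.5 in the knockout libraries. Their shift of -2.69 points (-5.56 to 0.175) overlapped between genotypes and was the third lowest of 19. Without knockout 2 it was -0.428 points, without wild type 2 -1.59 and without knockout 1 -4.69. Of the 210 regions 62 were lower (against 23.1%) and 39 higher (against 29.1%). Within this class, 95 regions inside genes had a shift of -5.20 points and 115 regions between genes one of -0.617. The shift at gene ends minus that elsewhere was -7.98 points on chromosome 13, -7.51 on chromosome 9 and -3.87 over the other autosomes. No test of that gap was made, since the rule used the same contrast.

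**Figure D2:**
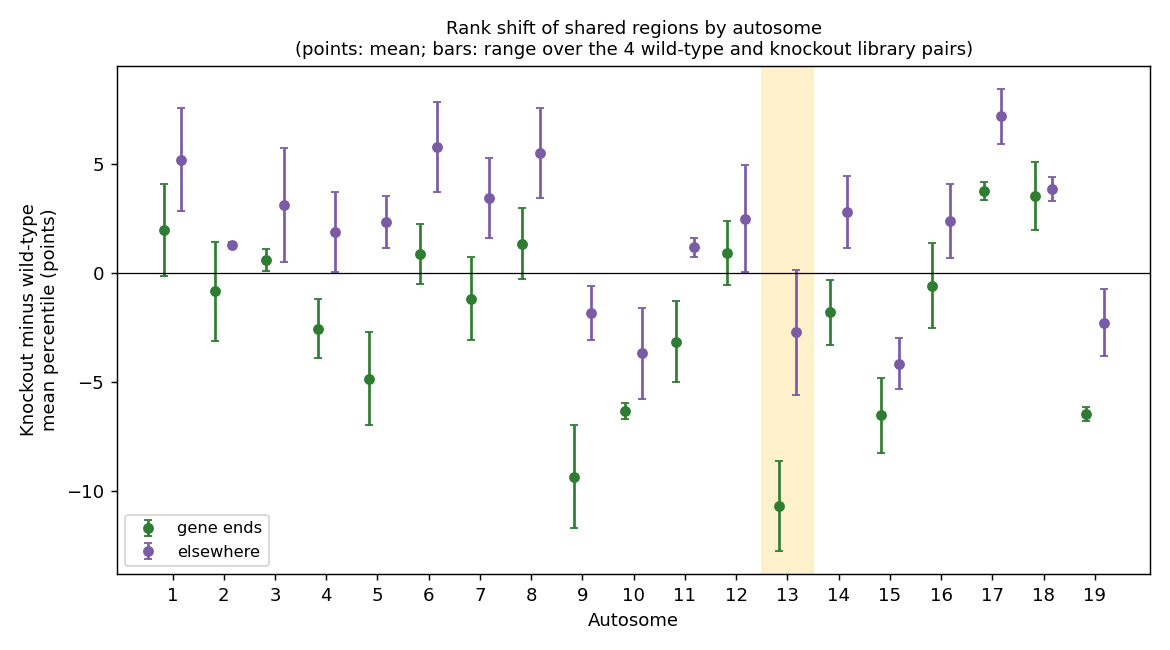
Difference in mean percentile rank between knockout and wild-type libraries (points, vertical axis) for shared regions of each autosome (horizontal axis), at gene ends (green) and elsewhere (purple), with bars for the range over the 4 library pairs. Chromosome 13, shaded, has the lowest gene-end point at -10.67, with chromosome 9 next at -9.33, while its point elsewhere, at -2.69, lies among those of other autosomes.

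The shift at gene ends was present from the weakest to the strongest regions. In 4 bands of mean percentile, each 25 points wide, from weakest to strongest, it was -7.25 (31 regions), -14.9 (68), -11.4 (44) and -5.35 points (40), with between 48.4% and 58.8% of regions lower in each band. The same gene-end bands on the other autosomes gave -2.08, -2.49, -1.88 and -0.930 points, with between 22.9% and 26.2% of regions lower. Away from gene ends the chromosome 13 bands gave 1.16, -2.98, -8.78 and 1.41 points, beside 2.48, 2.77, 1.34 and 0.995 on the other autosomes. A region near the top or bottom of the scale has less room to move, so these sizes are not equal steps of accessibility.

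The size of the shift depended on which deposited value ranked the regions. Fold enrichment compares the summit of a peak with background nearby in that library, whereas -log10 q also grows with the number of reads. Ranked by fold enrichment, the gene-end regions of chromosome 13 averaged percentiles 61.8 and 58.0 in wild-type and 54.1 and 55.2 in the knockout libraries. Their shift was -5.24 points (-7.66 to -2.83), still the lowest of 19 autosomes, with 60 of 183 lower (32.8%, against 22.5%) and 24 higher (against 16.9%). Elsewhere the percentiles were 45.4 and 45.9 in the wild-type and 48.4 and 45.5 in the knockout libraries, a shift of 1.26 points beside 1.66 on the other autosomes, with 39 of 210 lower (against 21.4%) and 50 higher (against 26.8%). Over all 393 regions the shift by fold was -1.77 points, the third lowest of 19, with 99 lower (against 21.9%) and 74 higher (against 22.0%). The lower place of regions away from gene ends was thus not seen by fold enrichment, and that at gene ends was less than 0.5 times as large.

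**Figure D3:**
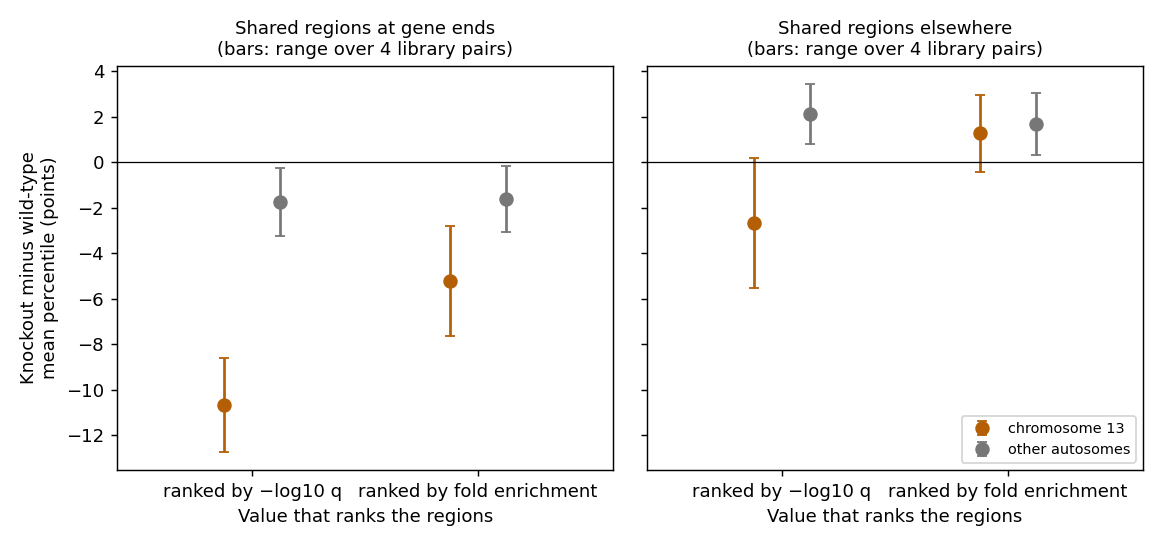
Difference in mean percentile rank between knockout and wild-type libraries (points, vertical axis) when shared regions are ranked by -log10 q or by fold enrichment (horizontal axis), for chromosome 13 (brown) and the other autosomes (grey), with bars for the range over the 4 library pairs. At gene ends (left) chromosome 13 moves from -10.67 to -5.24 points, and elsewhere (right) from -2.69 to 1.26.

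Median fold enrichment over all chromosome 13 peaks was 7.65 and 8.84 in the wild-type lists and 7.51 and 7.03 in the knockout lists, and on the other autosomes 7.74, 8.94, 7.29 and 6.80. Gene-end peaks of chromosome 13 had medians of 10.6 and 10.5 in the wild-type lists and 8.06 and 8.77 in the knockout lists. On the other autosomes gene-end medians were 10.99, 10.9, 8.49 and 9.15. The gap between chromosome 13 and the other autosomes at gene ends was therefore on the same side and of similar size in all 4 libraries. These gene-end medians thus showed no larger knockout fall on chromosome 13. Over all peaks, the chromosome 13 median lay below that of the other autosomes in both wild-type lists and above it in both knockout lists.

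Along the chromosome, 18 fixed windows of 5 Mb held at least 10 shared regions. Both knockout means lay below both wild-type means in 14 of them (27.8% of windows on the other autosomes), above both in 2 (30.6%) and overlapped them in the other two. The window means moved by a median of -6.88 points, from -12.8 between 15 and 20 Mb to 17.9 between 115 and 120 Mb. For gene-end regions alone, 16 windows held at least 5, of which 12 were lower (34.0%) and 0 higher (16.9%), with a median of -11.8 points. Ranked by fold enrichment, 9 of the 18 windows were lower (23.0%) and 3 higher (24.7%).

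**Figure D4:**
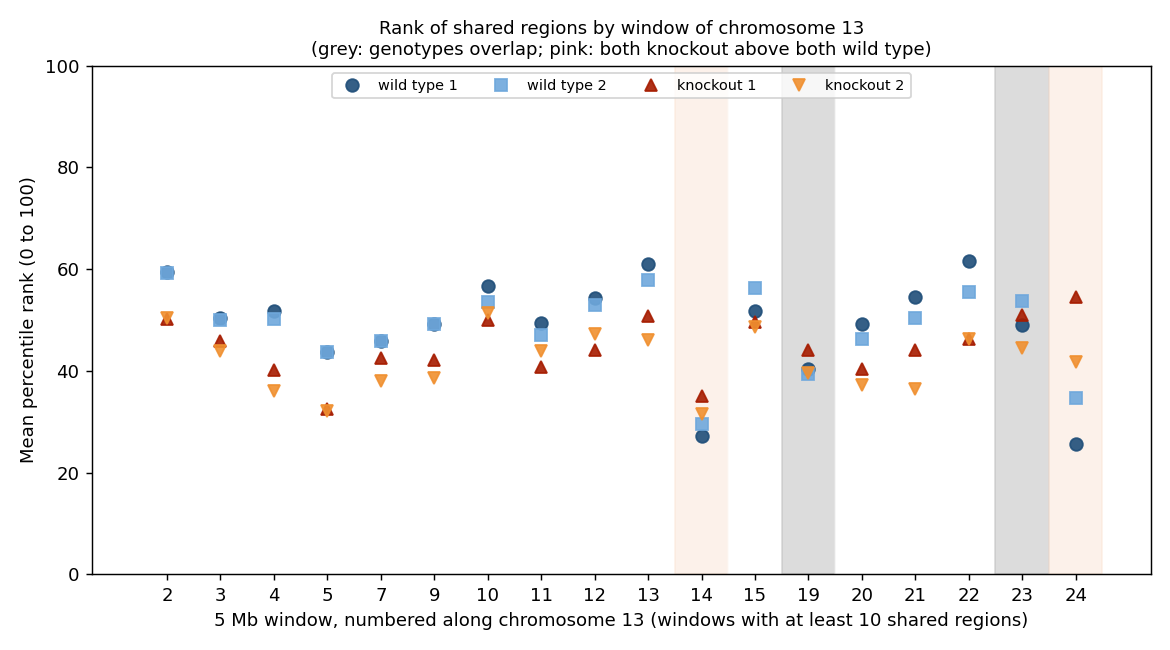
Mean percentile rank of shared regions (0 to 100, vertical axis) in each library, for the 18 windows of 5 Mb with at least 10 shared regions, numbered along chromosome 13 (horizontal axis). Circles and squares are the wild-type libraries and triangles the knockout libraries, and the knockout symbols lie below the wild-type symbols in 14 windows, above them in the 2 pink ones and among them in the 2 grey ones.

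The window with the lowest mean shift lay between 15 and 20 Mb. Its 10 shared regions averaged percentiles 51.7 and 50.1 in the wild-type and 40.1 and 36.1 in the knockout libraries. Its best-ranked gene-end regions did not all move. Stard3nl, a late endosome protein, had percentiles 87.8 and 87.5 in the wild-type and 60.9 and 78.3 in the knockout libraries. The promoter region of Mplkip and Sugct had 94.2, 93.1, 96.6 and 91.3, and that of Cdk13, a cyclin-dependent kinase that phosphorylates RNA polymerase II, had 76.1, 77.0, 82.5 and 69.8, both with overlapping genotypes. The same window held the wild-type-only region at Gli3.

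Between 20 and 25 Mb, where most of the histone genes lie, 98 members were found, more than in any other window. Its 47 shared regions averaged percentiles 43.7 and 43.7 in the wild-type and 32.6 and 32.04 in the knockout libraries. Replicates thus differed by less than 1 point while the genotypes differed by -11.4. Of the 47, 23 were lower and 0 higher, beside 40.5% and 10.9% of all shared regions of the chromosome and 24.0% and 23.1% on the other autosomes.

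The window between 65 and 70 Mb went the other way as a whole but not at gene ends. Its 18 shared regions averaged 27.1 and 29.5 in the wild-type and 35.1 and 31.6 in the knockout libraries. The 7 regions at gene ends had a mean shift of -9.79 points, with 3 lower (Mfsd14b, A930018O16Rik and Srd5a1) and 0 higher. Over all gene-end regions 53.0% were lower and 2.19% higher on the chromosome, and 25.0% and 16.6% on the other autosomes. The 11 elsewhere had a mean shift of 14.4 points, with 8 higher and 0 lower. Over all regions elsewhere 18.6% were higher and 29.5% lower on the chromosome, and 29.1% and 23.1% on the other autosomes. Wild type 1 and knockout 2 had 117 and 115 peaks in this window, against 40 in wild type 2 and 50 in knockout 1, so the number of peaks in it did not separate the genotypes.

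The window between 115 and 120 Mb had the highest mean shift, 17.9 points. Its 12 regions averaged percentiles 25.6 and 34.6 in the wild-type and 54.4 and 41.7 in the knockout libraries. Of these, 9 lay close together inside or next to Tmem267, from 119596684 to 119617600. They were singled out after their values were seen. Of the 9, 8 had fold enrichments from 2.35 to 5.60. The other, at 119598911-119599316, had 13.9 and 16.6 in the wild-type and 16.6 and 13.2 in the knockout libraries and stayed at percentiles 99.4 to 99.5. The largest positive shift on chromosome 13 was in this group, at 119616449-119616855, from 8.88 and 2.05 in the wild-type to 66.4 and 48.1 in the knockout libraries, while its fold enrichment was 3.74 and 3.17 against 4.60 and 4.72, and ranked by fold its shift was 1.92 points. The gene-end region of Hmgcs1, the cytosolic HMG-CoA synthase of cholesterol synthesis, in the same window, was lower, with 98.1 and 97.7 against 94.6 and 94.6.

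Regions of low fold enrichment ranked higher in the knockout libraries on the other autosomes as well. The 14 shared regions of chromosome 13 with a mean fold under 6 had a shift of 17.5 points, with 10 higher and 0 lower, and the 371 such regions of the other autosomes had 11.9 points, with 56.6% higher. Without them the shift of chromosome 13 was -7.29 points, and 14 windows were again lower.

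The authors' deposited tables list 22 regions of chromosome 13 among 190 enriched in wild-type cells and 1 among 189 enriched in knockout cells, without a fold change or p-value. They overlap 2.32% and 0.105% of the members, against 0.788% and 0.811% of the regions on the other autosomes. Of the 22, 17 lay at gene ends, and they fell into 14 windows of 5 Mb. Each of the 22 was called in wild type 1 and wild type 2, 19 in knockout 1 and 20 in knockout 2. These tables were made from the same libraries, so the ranks below describe their regions and are no independent check.

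Among the 19 with a peak in all 4 libraries, 12 were lower, 0 were higher and 7 overlapped, with a median shift of -9.15 points. Of all shared regions, 40.5% were lower on the chromosome, 53.0% at its gene ends and 24.0% on the other autosomes. The median shift of all gene-end regions of the chromosome was -9.51 points, close to that of the listed regions. Foxc1, the forkhead factor whose promoter is printed above, had percentiles 56.7 and 57.2 in the wild-type libraries, against 12.7 and 17.2 in the knockout libraries. Its fold enrichment was 14.7 and 12.2 against 6.12 and 7.84, and ranked by fold its shift was -33.9 points. Tmem170b had percentiles 75.5 and 79.0 against 37.3 and 57.5, and fold enrichments of 20.6 and 17.6 against 8.21 and 13.4. H2ac6 had percentiles 86.0 and 82.6 against 46.7 and 64.3, with fold enrichments of 16.5 and 14.5 against 8.06 and 11.6. Ranked by fold, the shifts were -22.1 points at Tmem170b and -12.8 at H2ac6. In these 3 regions the knockout libraries differed from each other as well, with knockout 1 the lower.

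Away from gene ends, a region 42.1 kb from Mef2c, a MADS-box factor of muscle and mesenchyme, had percentiles 20.3 and 38.2 in the wild-type and 10.8 and 0.287 in the knockout libraries. A region inside Aopep, an aminopeptidase gene, had 74.7 and 58.1 against 33.3 and 50.2, and one 6.71 kb from Mier3 had 81.8 and 77.7 against 56.7 and 77.0. The Mier3 genotypes were thus separated by less than 1 point between wild type 2 and knockout 2.

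Among high-ranked promoters of the list that were lower, the step on the percentile scale differed in size. It was -13.1 points at Kdm1b, -5.50 at Srd5a1 and -5.36 at B3galnt2. Kdm1b had percentiles 94.0 and 94.9 in the wild-type and 80.6 and 82.0 in the knockout libraries. Srd5a1 had 97.7 and 97.0 against 92.4 and 91.3, with fold enrichments of 26.0 and 23.4 against 15.3 and 18.4. Gene-end fold enrichments were lower in the knockout lists on the other autosomes as well, and ranked by fold the Srd5a1 shift was -2.67 points. B3galnt2, a glycosyltransferase that acts on dystroglycan, had 96.1 and 96.1 against 89.2 and 92.3. Grk6, a G-protein-coupled receptor kinase, Poc5, a centriole protein, and H2ac8 completed the 12, with shifts of -6.17, -9.15 and -25.3 points.

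Of the 7 overlapping regions, 6 lay at or near Sugct, H2bc14, Ripor2, Cks2, Lman2 and Arrdc3. For Cks2, a subunit of cyclin-dependent kinases, the percentiles were 86.4 and 68.6 in the wild-type and 84.5 and 75.8 in the knockout libraries. Arrdc3, an arrestin-domain protein, had 62.4 and 63.4 against 87.4 and 47.1. In both, at least 1 knockout library lay between or above the wild-type libraries. The other 3 of the 22 regions lacked a knockout peak: those at Gli3 and H1f3, a linker histone gene, were wild-type-only, and that at Rmi1, a subunit of the dissolvasome, lacked knockout 1.

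**Figure D5:**
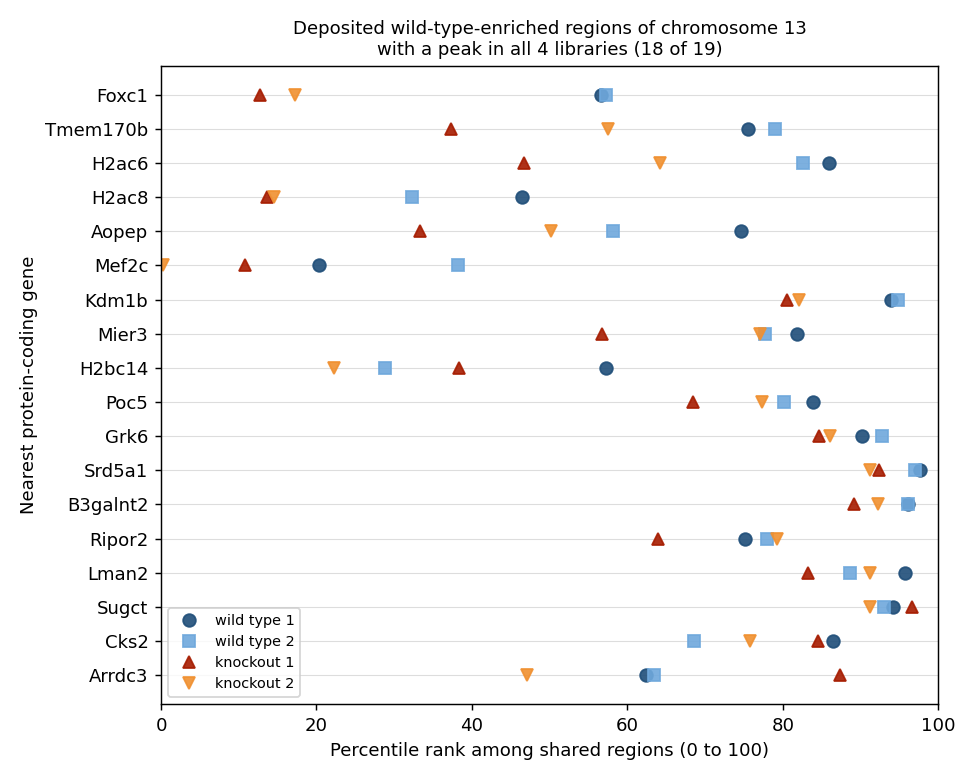
Percentile rank among shared regions (0 to 100, horizontal axis) in each library for 18 of the 19 chromosome 13 regions of the authors' deposited table of wild-type-enriched regions that had a peak in all 4 libraries, named by the nearest protein-coding gene (vertical axis) and ordered by the shift. Both triangles (knockout) lie left of the circle and the square (wild type) in 12 rows, from Foxc1 with the largest distance to B3galnt2 among the smallest.

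The pattern was not limited to the listed regions. The 374 shared members outside the deposited tables had a shift of -6.07 points, and the 169 at gene ends one of -10.5 points, with 88 lower and 4 higher. Over all gene-end regions of the chromosome 53.0% were lower and 2.19% higher, and on the other autosomes 25.0% and 16.6%. The members outside the tables are most of those by which the chromosome was chosen, so their values are no separate support. The 4 at gene ends that were higher, singled out after their values were seen, were Secisbp2, Pfkp, Ddx41 and Gpr137b. Secisbp2 had percentiles 31.9 and 38.7 in the wild-type and 50.5 and 65.2 in the knockout libraries, although its fold enrichment, 12.3 and 10.7 against 8.99 and 13.8, overlapped. Ddx41 had 73.3 and 77.8 against 78.8 and 81.5. Pfkp, a phosphofructokinase of glycolysis, had 20.8 and 5.42 against 21.7 and 24.9, so wild type 1 and knockout 1 differed by less than 1 point. Gpr137b, a lysosomal membrane protein, lay near the bottom of the scale, at 3.57 and 0.794 against 7.06 and 4.18.

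The 5 largest negative shifts of percentile among regions whose genotypes did not overlap were at Adamts16, Ccno, H2ac15, H2ac12 and Foxc1. A region inside Adamts16, a secreted metalloprotease, at 70730020-70730356, had percentiles 46.8 and 73.5 in the wild-type and 1.20 and 15.9 in the knockout libraries, with fold enrichments of 12.5 and 14.8 against 4.81 and 7.29. Ccno, a cyclin-related gene of multiciliated cells, had 68.9 and 73.6 against 16.2 and 36.8 at 112987540-112987880. The 2 histone H2A genes had 51.9 and 50.7 against 10.0 and 4.88 (H2ac15) and 56.5 and 48.2 against 12.8 and 7.47 (H2ac12). Ranked by fold enrichment, the shifts of the 5 ran from -45.4 (Adamts16) to -32.7 points (H2ac15).

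The 5 largest positive shifts lay away from gene ends. Besides the region near Tmem267, a region 55.2 kb from Cdkal1, a tRNA-modifying enzyme, had percentiles 3.44 and 1.70 in the wild-type and 68.4 and 29.3 in the knockout libraries. One inside Ankrd55 had 15.3 and 28.4 against 70.9 and 61.9, with fold enrichments of 10.2 and 10.0 against 11.3 and 13.6. The others lay at 97775158-97775414, with no protein-coding gene within 100 kb, and inside Serpinb1c, a serine protease inhibitor gene, with shifts of 42.1 and 39.7 points. Ranked by fold enrichment, the regions other than that of Tmem267 had shifts from 48.2 to 52.3 points.

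Most of the 10 best-ranked members kept nearly the same percentile in every library. Regions near Tcstv3, inside Il31ra, inside Tmem267, at 3372906-3373716 and inside Jarid2 ranked above percentile 99 in all 4, and those inside 2210408I21Rik, at E2f3, at Gpbp1, near Zfp825 and at Hmgcs1 averaged 98.3, 97.8, 97.0, 95.1 and 96.2. E2f3, an activator of S-phase genes, was lower by small steps, with 98.6 and 98.4 in the wild-type and 96.1 and 97.9 in the knockout libraries. The 2210408I21Rik region was higher, with 97.7 and 97.3 against 99.1 and 99.2, and so was the Zfp825 region, with 86.3 and 96.6 against 99.0 and 98.5. Il31ra was lower by -0.103 points, a step that the percentile scale resolves only because the regions are many.

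Counts for groups of genes are given below beside those of all gene-end regions. On chromosome 13, 53.0% of the 183 shared ones were lower and 2.19% higher, with a median shift of -9.51 points, and on the other autosomes 25.0% and 16.6%, with a median of -1.36. A group's count near these shares shows nothing particular to the group.

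The histone cluster was followed gene by gene. Replication-dependent histone genes are transcribed in S phase from short promoters that often pair CCAAT and TATA boxes. Of 53 histone genes on the chromosome, the members at their ends formed 40 regions, 24 of them with a peak in all 4 libraries. Of the 24, 11 were lower and 0 higher, with a median shift of -13.1 points (-43.9 to 14.7), beside 53.0% lower over all gene-end regions of the chromosome and 25.0% on the other autosomes. Besides H2ac15, H2ac12, H2ac6 and H2ac8, the lower regions included H2bc9 (52.5 and 60.8 in the wild-type, 21.1 and 27.2 in the knockout libraries), H3c7 (44.4 and 47.2 against 23.2 and 4.70) and H4c8 (61.8 and 42.6 against 26.7 and 19.4). H2bc3 (62.9 and 20.1 against 67.8 and 44.6), H4c3 (39.0 and 33.5 against 58.5 and 38.7) and H2ac23 (35.3 and 21.7 against 30.5 and 50.7) had higher knockout means with overlapping genotypes. The wild-type-only regions were 3, at H4c17, H1f3 and H4c2. Histone genes are near-identical copies, and reads that match several of them could have been shared or dropped by the authors' mapping, so the values of single histone genes are uncertain.

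Of 20 developmental and growth signalling genes, 11 had a gene-end member, 5 of them in all 4 libraries, with 3 lower (Edn1, Il6st and Gadd45g) and 0 higher and a median shift of -14.2 points, beside 53.0% lower over the gene-end regions of the chromosome. The best-ranked was Gas1, with percentiles 73.7 and 91.0 in the wild-type and 79.2 and 57.2 in the knockout libraries, which overlap. Il6st, the shared receptor subunit of the interleukin-6 family, had 41.6 and 49.5 against 35.5 and 27.1. Gli3, the transcription factor of the Hedgehog pathway, Ror2, a Wnt5a receptor, and Fst, which encodes the activin antagonist follistatin, were wild-type-only, with fold enrichments of 10.4 and 8.86, 13.2 and 8.20, and 6.76 and 7.74. The absence of a knockout peak at these 3 genes means that the regions stayed under the threshold of both knockout lists.

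Lineage transcription factors gave 7 gene-end members among 20 genes. Of the 6 shared ones 4 were lower (Foxc1, Id4, Klf6 and E2f3) and 0 higher, with a median of -11.6 points beside -9.51 for the chromosome's gene-end regions. Id4, an inhibitor of basic helix-loop-helix factors, had percentiles 69.5 and 61.2 in the wild-type and 33.8 and 38.9 in the knockout libraries. Klf6, a zinc-finger factor, had 89.4 and 91.8 against 86.3 and 81.3. Nfil3, a basic leucine zipper repressor, was wild-type-only. Of the 13 without a gene-end member, Irx2 has a listed start inside its span that overlaps a member at 72628380-72628836, whose shift of -23.1 points had overlapping genotypes. Pitx1, Msx2 and Isl1 had neither.

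Matrix, adhesion and cytoskeletal genes gave 6 gene-end members among 19 genes on the chromosome, of which 3 were shared and all 3 lower: Adamts6, Enc1 and Ctsl. With 53.0% of the chromosome's gene-end regions lower, 3 regions are too few to set this list apart. The best-ranked, Ctsl, the lysosomal protease cathepsin L, had percentiles 57.6 and 57.1 in the wild-type and 38.7 and 44.0 in the knockout libraries. At the gene-end region of Adamts6 they were 26.7 and 41.0 against 10.8 and 6.86. The other 3 members of this list, at Itga1, Nid1 and Pdlim7, lacked a peak in knockout 1 only.

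Of 20 cell cycle and DNA repair genes 15 had a gene-end member and 13 a shared one, with 5 lower (Cdk7, Polk, Plk2, Depdc1b and Ercc8), 0 higher and a median of -0.571 points, beside 53.0% lower and -9.51 for all gene-end regions of the chromosome. Listed starts of Fancc and Dek inside their spans overlapped further members outside the gene-end rule, at Fancc in all 4 libraries with a shift of 4.29 points and overlapping genotypes. Depdc1b, a RhoGAP-like protein of mitosis, had percentiles 51.5 and 51.8 in the wild-type and 0.578 and 21.9 in the knockout libraries. The best-ranked, Cdk20, had 90.9 and 93.9 against 90.1 and 91.0, which overlap. Ccnh, the cyclin partner of Cdk7, had 42.8 and 35.6 against 64.8 and 39.2, also with overlap, and Cdk7 itself 92.7 and 93.8 against 88.1 and 81.0. Cenpk and Ppwd1 share one promoter region, as do Ercc8 and Ndufaf2, Polk and Cert1, and Rad17 and Taf9, so these pairs are single measurements counted under each gene.

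Metabolic genes gave 14 gene-end members among 18 genes, 9 of them shared, with 6 lower, 1 higher (Pfkp) and a median of -11.1 points, beside 53.0% lower and 2.19% higher over the chromosome's gene-end regions. Srd5a1, described above, ranked best. Mccc2, of leucine breakdown, had percentiles 87.7 and 73.9 in the wild-type and 60.4 and 71.1 in the knockout libraries. Ndufs6 and Sdha, subunits of the respiratory chain, were wild-type-only.

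Of 4 nuclear transport genes on the chromosome, 2 had a gene-end member, and both were shared and lower, as were 53.0% of the chromosome's gene-end regions and 25.0% of those on the other autosomes. Ipo11, an importin, had percentiles 82.1 and 72.9 in the wild-type and 60.8 and 62.6 in the knockout libraries, and fold enrichments of 23.3 and 16.2 against 9.88 and 14.2. Nup153, a nucleoporin of the nuclear basket, had 68.5 and 79.5 against 55.9 and 65.1, and fold enrichments of 16.5 and 16.6 against 9.56 and 13.7. Gene-end fold enrichments were lower in the knockout lists on the other autosomes as well, and ranked by fold the shifts were -11.9 points at Ipo11 and -2.25 at Nup153. Tnpo1, an import receptor of the same list, has a listed start inside its span that overlaps a shared member at 98890974-98891118, with a shift of -4.74 points and overlapping genotypes.

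Transcription, chromatin and RNA processing genes gave 15 gene-end members among 19 genes, 11 of them shared, with 6 lower, 1 higher (Ddx41) and a median of -5.53 points, beside 53.0% lower and -9.51 for the chromosome's gene-end regions. Zfp346, an RNA-binding zinc-finger protein, had percentiles 55.3 and 55.9 in the wild-type and 17.9 and 35.2 in the knockout libraries. The gene-end region counted for Hnrnpk, an RNA-binding protein, had 78.1 and 81.1 against 51.9 and 61.5. This region, at 58402439-58402744, holds a listed start of Rmi1. The listed start of Hnrnpk lies in the neighbouring region at 58402115-58402273, the deposited wild-type-enriched one named above for Rmi1, which lacked knockout 1. The best-ranked, Gpbp1, stayed at 97.5, 96.4, 97.1 and 96.9. Nol7, a nucleolar protein, was wild-type-only. At Smn1 a listed start inside the span overlapped a member that lacked knockout 1. Of 20 genes on the chromosome typical of other cell types, among them Irf4, Cd83, Ntrk2, Ryr2 and Dsp, 0 had a gene-end member.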

How the data were processed

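ATAC-seq was analysed in 2 wild-type and 2 Ranbp2 knockout libraries. The submitters' processing notes name the build mm10 and, with no role or order, MACS2, Bowtie2, cutadapt, deepTools, DESeq2 and DiffBind 2.2.12. The authors deposited 1 peak list per library, called in each library separately per the peak names. The deposited score of a peak follows its −log10 q, the deposited fold enrichment is a ratio at the summit, and the deposited −log10 p and −log10 q come from the peak caller. No read counts were used, so depth is unknown. The authors' tables of differential regions give positions only, with settings not given in the sources used here.

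Merging, presence, percentile ranks over 10647 regions shared by all 4 libraries, windows and distances were computed with Python 3.11.15, numpy 2.4.6, pandas 2.3.3 and scipy 1.17.1, and figures drawn with matplotlib 3.10.9. The steps were tested on simulated data. Genes came from RefSeq spans of GRCm38.p6, the primary coordinates of mm10, with the containing or nearest protein-coding gene within 100 kb as the name. Some genes that the naming rule covers are not reported here by name, and counts include them. The spans have no strand and the promoter table lacks some genes, so gene ends stood in for starts, and starts were tried as an alternative. Same-numbered libraries were not treated as pairs.

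The members, gene lists and tests were chosen with earlier results of these data known. Genes were named by a rule: those nearest deposited differential regions, the 10 best-ranked members, the 5 largest negative and the 5 largest positive shifts, the 5 best-ranked members of each genotype-only class, listed genes with a gene-end member in 1 genotype only, the best-ranked gene of each list, and the 3 best-ranked gene-end members of the lowest and the highest window. Alternatives covered the ranking value, the list ranked, a stricter threshold, equal list length, merging, windows, gene-end distance, fewer comparison autosomes and each library left out.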

Additional observations from a re-analysis of the deposited data

How the results depend on the processing

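The lower rank of chromosome 13 regions kept its sign at gene ends under each alternative run, while away from gene ends it became 1.26 points when regions were ranked by fold enrichment. That ranking also gave -1.77 points for all shared regions, -5.24 at gene ends and 9 lower windows. Ranked within each whole list, the shifts were -12.3, -15.2 at gene ends and -9.76 elsewhere, with 4 lower windows. The genotypes overlapped in each of these means, because knockout 2 lay above wild type 2. The library means ran in the order of list length, highest in wild type 1 and lowest in knockout 1. These larger shifts are therefore no clearer separation of the genotypes. At equal list length the gene-end share difference was -0.406 points, with 81 wild-type-only and 23 knockout-only members. Compared with fewer autosomes, the difference in peak share was -1.37 points, since fewer peaks are counted. For the other changes the cause was not tested. With 1 library left out at a time, the shifts ran from -6.54 to -4.84 for all shared regions, from -12.5 to -8.99 at gene ends and from -4.69 to -0.428 elsewhere, lower windows from 14 to 18, wild-type-only members from 175 to 805 and knockout-only members from 10 to 148. The difference in peak share ran from -1.05 to -0.566 points, the gene-end share difference from 0.120 to 10.4, and the gap to other autosomes in gene-end share from -3.40 to -2.20. With low-fold regions left out, an alternative chosen after seeing the data, the shift elsewhere was -3.94 points. Transcription starts, also chosen afterwards, gave -10.70 and -2.59 points.

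Over 89 named regions and 958 comparisons, 66 gave a shift of opposite sign, at 30 regions: 14 when ranked by fold enrichment, 15 within the whole list, 35 with 1 library left out and 2 with fewer autosomes. Of the 66, 62 were at regions whose genotypes overlapped, and the other 4 were at 3 regions: Gpr137b (-0.157) and Ddx41 (-1.85) when ranked within the whole list, and Pfkp (-0.352) and Gpr137b (-1.22) without wild type 2. With 1 library left out, Pfkp reached at most 19.6 and Gpr137b 8.47. The gene-end share difference with a replicate block was again 5.28 points, with an exact sign-flip permutation p of 1.0. Same-numbered libraries shared only a number, with a correlation of deviations of 0.0329. Depth limits each absence of a peak, because the lists hold only regions past a threshold.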
